A study of Mus musculus with 12 samples.

Results

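The 8 joining segments TRAJ57, TRAJ56, TRAJ44, TRAJ43, TRAJ40, TRAJ26, TRAJ16 and TRAJ13 of the T cell receptor alpha chain (TRA) are described here in CD8+ T cells that bind a tumor antigen. They were chosen by their share of TRA reads, which was lower in tumor than in lymph node, so that difference is a selection rule and not a finding. The table of TRA rearrangements held 716 rows with 1 of these 8 segments among 10521 rows, and 45 TRAJ segments had a row. The 716 rows carried 29215 of 731688 reads. Rearrangements that read in frame with no stop are called productive. The 8 segments took 20825 of 625661 productive reads and 455 of 7233 productive clonotypes. A clonotype is 1 nucleotide sequence of the third complementarity-determining region (CDR3) with its V and J segment in 1 library.

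The cells were CD8+ T cells that bound a tetramer for Rpl18, a neoantigen of MC38, a transplanted mouse colon carcinoma line. They were sorted on day 10 after tumor injection from the tumor or from the tumor-draining lymph node (TDLN). The mice were WT or carried a knockout (KO) of TrIP, a membrane inhibitor of PI3 kinase signalling, confined to CD8 cells, and all groups received MC38. The 4 groups of 3 libraries were WT TDLN (numbered 1, 3 and 4), WT tumor (2, 3 and 4), KO TDLN (1, 2 and 3) and KO tumor (1, 2 and 3). Strain, age and the driver of the deletion are not given in the sources used here. The deletion and the CD8 identity were not checked, because gene expression was not analysed here.

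An alpha chain gene is made in the thymus when a TRAV segment is joined to 1 of the many TRAJ segments, with bases trimmed and added at the junction. Both chromosomes can rearrange, and a T cell often carries a joint that is out of frame beside the productive one. Successive rearrangements on a chromosome move to V segments farther upstream and J segments farther downstream, so early joints tend to pair the V segments nearest to J with the 5′ J segments. The CDR3 spans the junction, and its last residues are encoded by the J segment, whose conserved phenylalanine or similar residue closes it.

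The libraries held 15832 (WT TDLN 4) to 94874 (WT tumor 2) productive TRA reads and 226 to 947 productive clonotypes. No molecular identifiers are described, so reads are not independent molecules and the limits given for 0 reads cover counting error only. In these bulk libraries fewer cells of a clone and less RNA per cell cannot be told apart. The run log marks 4 libraries as timed out, WT TDLN 1 and 3 and KO TDLN 1 and 2, and none from tumor. The library names share a letter between 1 TDLN and 1 tumor library, but the large overlaps joined libraries of different letters. Clonotypes that WT tumor 2 shared with KO TDLN 1 held 98.2% of its reads, and those that WT tumor 4 shared with WT TDLN 1 held 95.0%. KO tumor 3 shared 48.8% of its reads with WT TDLN 3. How this sharing arose was not tested, and SDs and tests treat the libraries as independent. Whether the libraries of a group come from separate mice is not stated, so p-values measure only the spread between these libraries.

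The largest productive TDLN clonotype of each segment, by its share of a library, is printed below from the deposited rows. Each runs 5′ to 3′ from the codon of the conserved cysteine. They are printed because each led its segment, with 11.3% of TDLN reads for TRAJ26 to 81.3% for TRAJ40. Capitals mark the end of the CDR3 that at least 50% of the segment's different in-frame sequences share. No germline J sequences were used, so bases encoded by the J segment may also lie in the lower case. For TRAJ44, the deposited leading sequence and the leading sequence whose J end reads in frame are both shown.
TRAJ57: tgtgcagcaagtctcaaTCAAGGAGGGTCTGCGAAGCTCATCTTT
TRAJ56: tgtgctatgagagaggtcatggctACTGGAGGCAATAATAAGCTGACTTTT
TRAJ44: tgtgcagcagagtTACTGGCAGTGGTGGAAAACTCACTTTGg
TRAJ44 in frame: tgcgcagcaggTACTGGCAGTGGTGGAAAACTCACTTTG
TRAJ43: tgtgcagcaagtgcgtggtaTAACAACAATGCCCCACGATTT
TRAJ40: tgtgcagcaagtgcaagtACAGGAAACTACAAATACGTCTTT
TRAJ26: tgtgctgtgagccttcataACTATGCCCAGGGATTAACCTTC
TRAJ16: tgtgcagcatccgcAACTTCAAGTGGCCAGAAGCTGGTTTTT
TRAJ13: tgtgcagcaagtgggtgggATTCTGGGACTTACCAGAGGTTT
The capitals run from 22 bases in TRAJ43 to 28 in TRAJ57, TRAJ44 and TRAJ16, so this shared end makes up most of each CDR3. All of these segments lie on mouse chromosome 14, per RefSeq GRCm38.p6.

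The 8 segments together took 4.03%, 7.31% and 1.66% of productive reads in WT TDLN 1, 3 and 4, and 17.6%, 7.46% and 3.91% in KO TDLN 1, 2 and 3. They took 0%, 0% and 0.00726% in WT tumor 2, 3 and 4, and 0.00846%, 0% and 0.594% in KO tumor 1, 2 and 3. Each TDLN library therefore lay above each tumor library, as the choice of the segments sets, and 3 of the 6 tumor libraries had no productive read of any of them. The mean share was 4.33% ± 2.84 in WT TDLN, 9.65% ± 7.10 in KO TDLN, 0.00242% ± 0.00419 in WT tumor and 0.201% ± 0.340 in KO tumor (SD, n = 3 each). Productive reads were 335324 in tumor against 290337 in TDLN in all. In WT they were 220242 in tumor against 146609 in TDLN, and in KO 115082 against 143728. Productive clonotypes were fewer in tumor, 2890 against 4343. With the TRAJ7 frame as deposited the WT TDLN mean was 7.12% ± 2.44. In the 2 TDLN libraries without the timed-out mark the share was 1.66% and 3.91%, the lowest of the 6. With the TRAJ7 frame as deposited these 2 values were 8.36% and 3.95%, so the low value of WT TDLN 4 depends on that choice.

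The contrast that chose the segments was tumor minus TDLN over both genotypes, fitted with edgeR's quasi-likelihood model on the reads of all TRAJ segments. It placed 8 of 43 segments (18.6%) below an adjusted p of 0.05 and lower in tumor, and these are the 8 members by definition. Just inside the threshold lay TRAJ40 (adjusted p 0.0435, edgeR), at 2.59% of TDLN reads on average against 0.0573% of tumor reads, and TRAJ44 (0.0434), at 0.566% against 0.0417%. Just outside lay TRAJ24 and TRAJ47 (both 0.0753, edgeR). TRAJ24 took 0.177% of TDLN and 0.0159% of tumor reads, and TRAJ47 took 0.0900% and 0.000242%. Membership at this edge thus rests on small differences in p, and the number of segments past it varied from 2 to 12 with the settings tried.

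**Figure D1:**
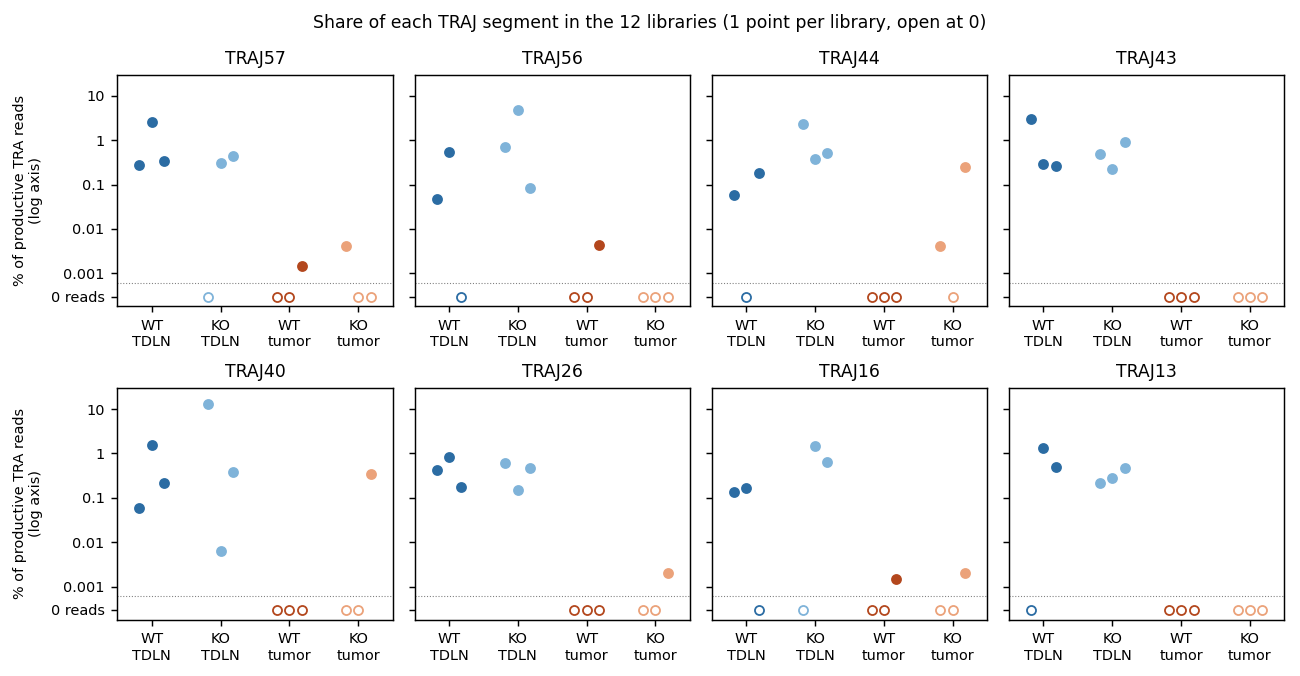
Each panel plots, for 1 TRAJ segment, its percent of productive TRA reads on a log axis in the 12 libraries, with 1 point per library by group and open points at the foot for 0 reads. TRAJ43 and TRAJ13 had no productive read in any tumor library, while TRAJ44 and TRAJ40 reached 0.246% and 0.344% in KO tumor 3.

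TRAJ57 took 0.277%, 2.58% and 0.341% of productive reads in WT TDLN 1, 3 and 4, and 0%, 0.304% and 0.439% in KO TDLN 1, 2 and 3. In tumor it was seen as 1 productive read in WT tumor 4 and 1 in KO tumor 1. WT TDLN 3 stood above the other TDLN libraries, and KO TDLN 1 held only 33 non-productive reads of it.

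TRAJ56 took 0.0462%, 0.536% and 0% in WT TDLN and 0.689%, 4.66% and 0.0848% in KO TDLN, in the same order of libraries. Its tumor reads were 3, all in WT tumor 4. KO TDLN 2 held 2941 of its 3552 TDLN reads, and 2777 of these were 1 clonotype, the TRAV16 sequence printed above.

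TRAJ44 took 0.0583%, 0% and 0.183% in WT TDLN and 2.28%, 0.367% and 0.506% in KO TDLN. The KO TDLN values were above the WT ones, but edgeR did not call TRAJ44 (adjusted p 0.918). How many of the 43 segments tested showed such an order was not counted. Of its 924 reads in KO TDLN 1, 789 were the printed sequence whose J end was out of frame. In tumor it was seen in KO tumor 1 (1 read) and KO tumor 3 (121 reads, 0.246%).

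TRAJ43 was found in all 6 TDLN libraries, at 3.04%, 0.287% and 0.259% in WT and 0.492%, 0.223% and 0.913% in KO. It had no productive read among the 335324 of the tumor libraries, which allows a share of up to 0.000895%. WT TDLN 1 stood highest through 1 TRAV14-3 clonotype of 1912 reads, the sequence printed above.

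TRAJ40 had the widest range, with 0.0583%, 1.59% and 0.215% in WT TDLN and 13.3%, 0.00633% and 0.387% in KO TDLN. Of its 6390 TDLN reads 5197 were the printed TRAV14-2 clonotype of KO TDLN 1, which alone made up 12.8% of that library. In tumor only KO tumor 3 had productive reads of it, 169 (0.344%).

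TRAJ26 was the most even, with 0.413%, 0.844% and 0.177% in WT TDLN and 0.622%, 0.154% and 0.474% in KO TDLN. It had a single tumor read, in KO tumor 3. No library was carried by 1 clone of the size seen for TRAJ40 or TRAJ56, since its largest clonotype, with TRAV9-3, had 149 reads.

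TRAJ16 took 0.137%, 0.169% and 0% in WT TDLN and 0%, 1.47% and 0.636% in KO TDLN, with 1 productive tumor read each in WT tumor 4 and KO tumor 3. TRAJ13 took 0%, 1.31% and 0.486% in WT TDLN and 0.212%, 0.274% and 0.476% in KO TDLN. TRAJ13 had no tumor read of any kind, productive or not. The leading clonotypes used TRAV14-3 for TRAJ16 (777 reads, KO TDLN 2) and TRAV14-2 for TRAJ13 (273 reads, WT TDLN 3).

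KO against WT was not used by the rule and was tested. None of the 8 segments differed between KO and WT in TDLN by reads, where edgeR called 0 of 43 TRAJ segments (0%), 1 of 43 had an unadjusted p under 0.05, and DESeq2 called 2, neither of them among the 8. The KO minus WT log2 difference in reads was positive for 4 segments and negative for 4. TRAJ44 had 3.71 ± 3.05 (SE), from 0.0805% ± 0.0936 in WT to 1.05% ± 1.07 in KO (SD, n = 3 each, edgeR adjusted p = 0.918). This value was 2.34 with TMM scaling, 1.73 with DESeq2 and 1.70 with the TRAJ7 frame as deposited, so the order of the segments depends on the setting. TRAJ56 had 3.22 ± 3.11, from 0.194% ± 0.297 to 1.81% ± 2.48 (edgeR adjusted p = 0.918). TRAJ57 had -2.11 ± 2.85, from 1.07% ± 1.31 to 0.248% ± 0.225 (edgeR adjusted p = 0.925). The median difference was 1.29 over the 8 segments and -0.20 over all 43 segments tested. These standard errors span several doublings, so differences of that size were not resolved with 3 libraries a group. Single libraries decided several values. Without KO TDLN 1 the TRAJ40 value turned from 2.88 to -1.66, and that of TRAJ44 was 2.44. The TRAJ56 value was 0.99 without KO TDLN 2 and 6.25 without WT TDLN 3. The TRAJ57 value was -0.32 without WT TDLN 3.

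By clonotypes in place of reads, edgeR called 0 of 42 segments between KO and WT TDLN (0%), none had an unadjusted p under 0.05, and DESeq2 also called 0. Mean clonotypes per library were 25.7 ± 28.6 in KO against 5 ± 6.25 in WT for TRAJ56 and 8 ± 5.29 against 1.33 ± 1.53 for TRAJ44 (SD, n = 3 each). Those of TRAJ26 were 11.7 ± 1.53 against 11.7 ± 10.0. In tumor, edgeR called 0 of 43 segments between KO and WT by reads (0%). Before adjustment 10 of the 43 had a p under 0.05, and DESeq2 called 3, none of them among the 8. The 10 included TRAJ44 and TRAJ40, each with an edgeR adjusted p of 0.188. TRAJ43 and TRAJ13 had no productive tumor read, and TRAJ57, TRAJ56, TRAJ26 and TRAJ16 had 1 to 3 in all. This fit thus says nothing of KO against WT for these segments. Of the 299 productive tumor reads of the 8 segments 292 were in KO tumor 3, 5 in WT tumor 4 and 2 in KO tumor 1.

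Most TDLN clonotypes of the 8 segments were tiny, and a few were large. Of 443 TDLN clonotypes 288 (65.0%) were seen as 1 read, against 64.7% of the 3900 clonotypes of other segments, and the median was 1 read in both. Clonotypes of 100 reads or more made up 7.67% against 5.10%. Sequences 1 base away from a clonotype at least 100 times larger in the same library, which may be sequence errors, made up 35.2% against 45.6%. WT TDLN 4, the shallowest library, had 11 member clonotypes with a median of 20 reads, and the other 5 TDLN libraries had 55 to 114 with a median of 1.

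The segments differed in how concentrated they were. The largest clonotype held 81.3% of the TDLN reads of TRAJ40 and 78.2% of those of TRAJ56. It held 56.4% for TRAJ43, 56.3% for TRAJ16, 54.9% for TRAJ44 and 44.3% for TRAJ57. The TRAJ44 value rests on a sequence whose J end was out of frame, and without such rows it was 35.3% (225 of 638 reads). It held 23.5% for TRAJ13 and 11.3% for TRAJ26. TRAJ26 also had the smallest share of likely error sequences (12.9%) and TRAJ43 the largest (56.9%). The segments did not rise and fall together across the 6 TDLN libraries, with Spearman correlations of the 28 pairs from -0.486 to 0.886 and a median of 0.0857, given as a description over libraries that share depth and clones.

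The tumor libraries held 12 productive clonotypes of the 8 segments with 299 reads, and 8 of the 12 were seen as 1 read. KO tumor 3 held 7 of them with 292 reads. Only a pair of clonotypes reached 0.1% of a library, both in KO tumor 3, and they are printed below because they hold nearly all the tumor reads. Capitals again mark the shared J end.
TRAV7-6 TRAJ40: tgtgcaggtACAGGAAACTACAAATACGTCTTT
TRAV7-5 TRAJ44: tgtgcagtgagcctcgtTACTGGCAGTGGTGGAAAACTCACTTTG
The TRAJ40 clonotype had 168 reads in KO tumor 3 (0.342%) and 367 reads in WT TDLN 3. The TRAJ44 clonotype had 118 reads (0.240%) and was not seen in TDLN.

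Of the 12 tumor clonotypes 8, with 177 of the 299 reads, had the same CDR3 bases, V and J as a clonotype of a TDLN library, and none of the 8 was in the TDLN library of the same letter. The 3 reads of TRAJ56 in WT tumor 4 were the sequence that had 2777 reads in KO TDLN 2. The TRAJ16 read of WT tumor 4 matched the clonotype of 777 reads in KO TDLN 2, and the TRAJ57 read matched 118 reads there. Both clonotypes of KO tumor 1 were single reads of sequences that had 199 and 53 reads in KO TDLN 3. In these cases small numbers of tumor reads repeated larger clonotypes of a TDLN library of another letter. The other shared clonotypes lay in KO tumor 3 and WT TDLN 3. The printed TRAJ40 sequence had 168 reads against 367, and a TRAJ40 and a TRAJ16 clonotype had 1 read in each library. The source of all these reads was not tested.

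Sharing between tissues was lower for the 8 segments when counted from the TDLN side. Of 442 different TDLN clonotypes of the 8 segments 8 (1.81%) were also in tumor, against 337 of 3818 (8.83%) for other segments. Of the 12 tumor clonotypes these 8 were 66.7%, against 12.6% of 2670 for other segments. WT tumor 4 and WT TDLN 1 shared 85 clonotypes, which held 65.8% of the TDLN reads, and none used any of the 8 segments. WT tumor 2 and KO TDLN 1 shared 40 clonotypes, also with none of the 8, although KO TDLN 1 held 99 clonotypes of these segments. The 70 shared by WT tumor 3 and KO TDLN 3 held none either. Other pairs did share clonotypes of the 8 segments. These were 3 of 84 for KO tumor 3 and WT TDLN 3, 3 of 33 for WT tumor 4 and KO TDLN 2, and 2 of 17 for KO tumor 1 and KO TDLN 3. These comparisons follow from the contrast that chose the segments and were not tested.

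Out-of-frame joints of TRAJ40, TRAJ16 and TRAJ43 were present in tumor, and those of the other 5 segments were all but absent there. Non-productive reads of TRAJ40 were 3326 in TDLN and 2291 in tumor, and those of TRAJ16 were 548 and 273. TRAJ43 had 18 and 59. TRAJ56, TRAJ26, TRAJ13 and TRAJ44 had 1152, 278, 265 and 6 in TDLN and 0 in tumor, and TRAJ57 had 173 and 1. The TRAJ44 count follows the deposited call, which took as productive 798 TDLN reads with the J end out of frame. Non-productive reads of all 8 made up 1.65% ± 2.22 of all TRA reads in TDLN and 0.810% ± 1.23 in tumor (SD, n = 6 each). In TDLN 5766 of 26292 reads of the 8 segments (21.9%) were non-productive, against 14.2% for other segments. In tumor 2624 of 2923 (89.8%) were non-productive, against 13.6% for other segments, a share that is high in part by the rule, which chose segments with few productive tumor reads. All 2624 were out of frame. With non-productive reads included, the 8 segments took 1.71% ± 1.74 of KO tumor reads and 0.0925% ± 0.0935 of WT tumor reads (SD, n = 3 each).

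**Figure D2:**
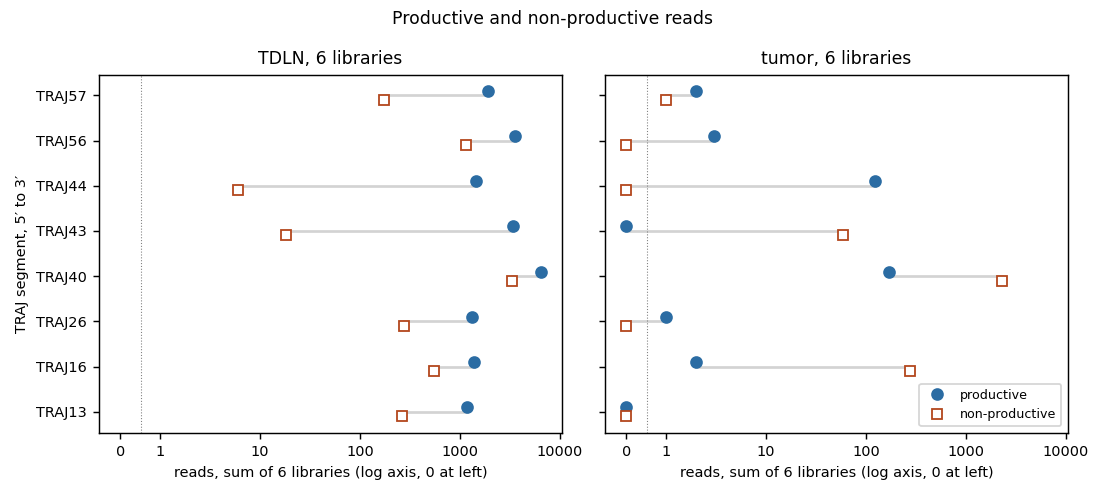
Reads of each TRAJ segment, summed over 6 libraries on a log axis with 0 at the left, are shown as filled circles for productive and open squares for non-productive rows, in TDLN (left) and tumor (right). By the deposited call, the productive reads in TDLN were the larger number for each of the 8 segments. For TRAJ44, however, 798 of the 1436 reads so called had the J end out of frame. In tumor TRAJ40, TRAJ16 and TRAJ43 had 2291, 273 and 59 non-productive reads against 169, 2 and 0 productive reads.

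The non-productive tumor reads came from few clonotypes. The 4 with 100 reads or more are printed because they hold nearly all of these reads, with the shared J end in capitals. The length of each is not a multiple of 3.
TRAV3-3 TRAJ40: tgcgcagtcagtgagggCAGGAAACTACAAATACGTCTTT
TRAV8-1 TRAJ40: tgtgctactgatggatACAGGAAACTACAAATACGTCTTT
TRAV14-3 TRAJ40: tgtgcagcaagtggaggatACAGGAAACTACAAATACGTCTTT
TRAV8-1 TRAJ16: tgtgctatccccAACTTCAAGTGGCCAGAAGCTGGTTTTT
The TRAV3-3 joint had 1348 reads in KO tumor 3 (2.43% of all its TRA reads) and 2955 reads in WT TDLN 3, the same pair of libraries that shared the productive TRAJ40 clonotype. The TRAV8-1 TRAJ40 joint had 763 reads in KO tumor 2 and 1 read in WT tumor 2. The TRAV14-3 joint had 143 reads and was seen in WT tumor 3 alone. The TRAV8-1 TRAJ16 joint had 261 reads in KO tumor 3 and 13 in WT TDLN 3. TRAJ43 had 56 reads of 1 out-of-frame TRAV8-2 joint in WT tumor 4. These reads show TRAJ40, TRAJ16 and TRAJ43 transcripts in tumor libraries with few or no productive reads of them.

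The call of productive and out of frame was checked against the J end of each segment. Of the 57 out-of-frame tumor rows 53 ended in the usual J bases in a shifted frame, and the other 4 did not hold the usual J end. For TRAJ44 the check went against the deposited call. Of its 1436 productive TDLN reads 798 had the J end in another frame, nearly all of them the leading sequence of KO TDLN 1, which runs 1 base past the usual end. Leaving these rows out lowered the KO minus WT log2 difference of TRAJ44 in TDLN from 3.71 to 2.32 (edgeR adjusted p = 0.926). The leading TRAJ44 clonotype by share was then the printed TRAV19 sequence, with 199 reads in KO TDLN 3. The single TRAJ16 read of KO tumor 3 lacked the usual J end and is 1 base shorter than the out-of-frame TRAV8-1 TRAJ16 joint of that library.

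The number of tumor clonotypes that depth and clone number alone would give was computed by applying each segment's mean share of TDLN clonotypes to the clonotypes of the tumor libraries. This gave 277 clonotypes for the 8 segments, against 12 observed (4.33%), and 140 against 10 (7.14%) without likely error sequences. By reads it gave 23455 against 299 (1.27%). For the other 35 segments with at least 5 predicted clonotypes, the observed number was 0% to 588% of the predicted, with a median of 76.9%. Among the 20 others whose TDLN read share lay between the lowest and the highest of the 8 segments, it was 17.2% to 368% with a median of 82.7%.

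Each segment lay below its own prediction, from 0 of 37.8 for TRAJ43 and 0 of 23.3 for TRAJ13 to 4 of 18.4 (21.7%) for TRAJ44. TRAJ56 had 1 of 53.5, TRAJ40 had 2 of 50.5 and TRAJ26 had 1 of 44.5. TRAJ57 had 2 of 28.2 and TRAJ16 had 2 of 21.0. The prediction for single tumor libraries was 29.5 clonotypes for KO tumor 1 to 61.5 for WT tumor 4, and the observed numbers were 0 to 7. Because the segments were chosen for being low in tumor, these gaps describe the choice and were not tested.

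**Figure D3:**
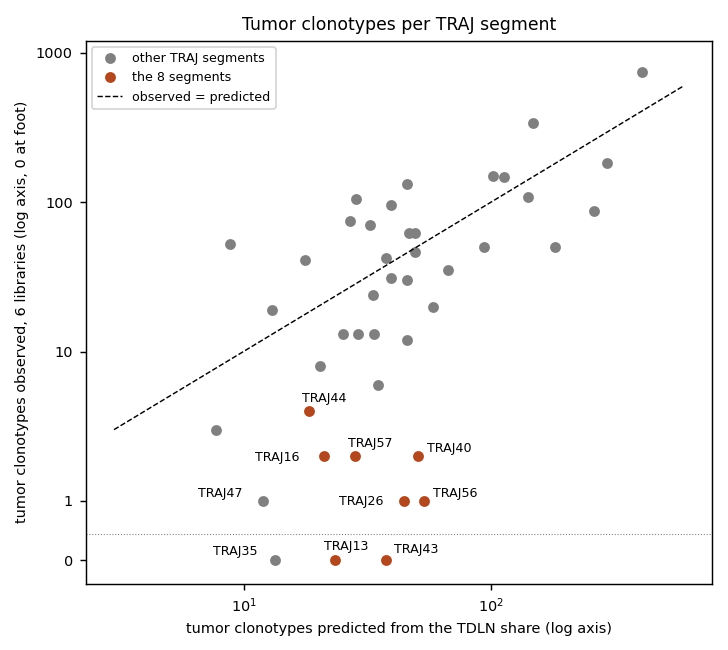
Each point is 1 TRAJ segment, with the tumor clonotypes predicted from its mean share of TDLN clonotypes on the x axis and those observed in the 6 tumor libraries on the y axis, both log, with 0 at the foot. The 8 segments lie at 0 to 4 observed for 18.4 to 53.5 predicted, and TRAJ47 and TRAJ35 are the other plotted segments at 1 or 0.

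Depth was also evened by computing the clonotypes expected in 15832 reads, the depth of the shallowest library. At that depth the TDLN libraries held 11 to 54.9 clonotypes of the 8 segments (4.87% to 13.2% of their clonotypes) and the tumor libraries 0 to 3.83 (0% to 1.42%). That these ranges did not overlap follows from the choice of the segments and says nothing further about depth. All clonotypes together numbered 363 on average in TDLN and 217 in tumor at that depth.

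Along the TRAJ array the 8 segments did not form 1 block. Counted 5′ to 3′ among 60 TRAJ genes of RefSeq GRCm38.p6, with names and order only used because the labels name another build, TRAJ57 and TRAJ56 were at places 5 and 6, TRAJ44, TRAJ43 and TRAJ40 at 18, 19 and 22, TRAJ26 at 36, and TRAJ16 and TRAJ13 at 46 and 49. Of the 8 direct neighbours with clonotypes 2 had a higher share of clonotypes in tumor than in TDLN and 6 a lower one. TRAJ42, next to TRAJ43, took 25.5% of tumor clonotypes against 14.0% in TDLN. TRAJ27, next to TRAJ26, took 3.63% against 0.988%, and TRAJ45, next to TRAJ44, took 3.74% against 4.86%. TRAJ58, next to TRAJ57, took 0.450% against 1.16%, and TRAJ39, next to TRAJ40, took 0.277% against 0.706%. TRAJ17 and TRAJ15, on either side of TRAJ16, took 3.01% against 9.02% and 1.59% against 1.70%. TRAJ12, next to TRAJ13, took 0.415% against 1.58%.

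**Figure D4:**
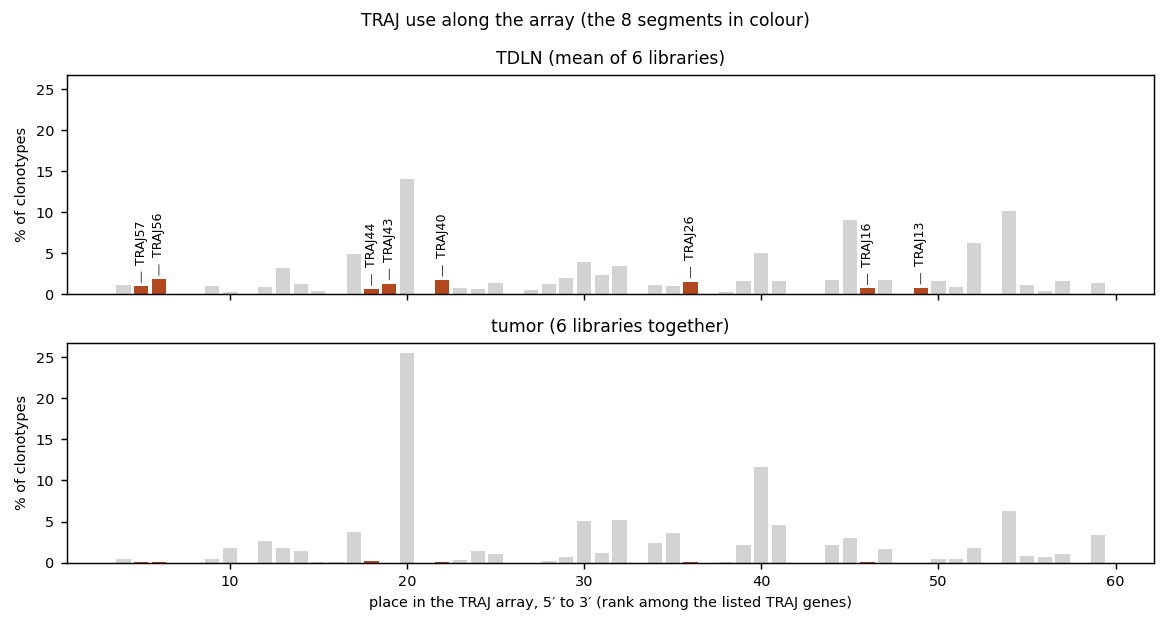
Bars give the percent of productive clonotypes per TRAJ segment by its place in the array, in TDLN (mean of 6 libraries, top) and tumor (6 libraries together, bottom), with the 8 segments in colour. The coloured bars are spread between places 5 and 49 of the array, with 0.637% to 1.85% of TDLN clonotypes and 0% to 0.138% of tumor clonotypes each.

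The V partners differed from segment to segment. The most frequent V among TDLN clonotypes was TRAV14-2 for TRAJ57 (21 of 40), TRAJ40 (36 of 78) and TRAJ44 (10 of 28). It was TRAV16 for TRAJ56 (66 of 92) and TRAJ26 (10 of 70). TRAV14-3 led for TRAJ43 (26 of 65) and TRAJ16 (18 of 36), and TRAV12-2 for TRAJ13 (9 of 34). Over all libraries the leading V of each segment was the same. TRAJ26 was joined to 20 V segments and TRAJ44 to 6. Without likely error sequences TRAV16 led TRAJ56 with 38 of 62, TRAV14-2 led TRAJ40 with 10 of 43, and the leading V was tied for 3 segments. These were TRAJ43 (TRAV12-3 and TRAV14-3, 5 of 28 each), TRAJ44 (TRAV14-2 and TRAV5-4, 6 of 19 each) and TRAJ26 (TRAV16 and TRAV6-7, 7 of 61 each). Without the TRAJ44 rows whose J end was out of frame, TRAV14-2 had 4 of 20 TRAJ44 clonotypes and TRAV6-3 had 6. Over the 8 segments TRAV16 made up 21.7% of TDLN clonotypes, against 21.1% for other segments, but 66 of these 96 clonotypes used TRAJ56. The second V was TRAV14-2 for the 8 (81 of 443 clonotypes) and TRAV3-3 for other segments (580 of 3900). By reads TRAV14-2 led in the 8 (38.6%) and TRAV3-3 in other segments (18.9%). Near-identical V segments cannot always be told apart by the reads.

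The V segments nearest to the J array, TRAV17 to the last TRAV in the order of the locus, were joined to TRAJ57 in 9 of 40 TDLN clonotypes (22.5%) and to TRAJ44 in 5 of 28 (17.9%). They were joined to TRAJ56 in 2 of 92 (2.17%) and to the other 5 segments in none. For all other TRAJ segments the share was 1.36%. Of the 5′ pair TRAJ57 and TRAJ56, only TRAJ57 thus had many such joints. The mean CDR3 length in TDLN ran from 12.9 ± 1.30 amino acids for TRAJ43 to 16.1 ± 1.27 for TRAJ56 (SD over clonotypes), against 14.6 ± 1.43 for other segments.

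The TRAJ segments most like the 8 in their pattern over the 12 libraries, by Spearman correlation with their summed share, were TRAJ58 (0.694), TRAJ53 (0.692) and TRAJ47 (0.636). The 12 points share depth and clones, and the order is set mostly by tissue. TRAJ58 took 1.24% of TDLN reads and 0.292% of tumor reads on average, and TRAJ53 took 0.428% and 0.214%. Both had productive reads in 2 tumor libraries, as TRAJ57, TRAJ44 and TRAJ16 had. Within the 6 TDLN libraries alone the correlations were 0.543, 0.0286 and 0.145.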

How the data were processed

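Per the file headers, each row of the deposited TRA table gives the authors' count of reads of 1 CDR3 rearrangement in 1 library, and the fraction the authors deposited beside it was not used for results. Per the labels, TCR-specific primers were used on polyA RNA and the build was GRCm39. The assembler's settings and version are not given in the sources used here. The authors' counts of assembled reads and the timed-out mark come from the deposited run log. Some lines of the table were not analysed here. The authors' tables number WT tumor 2 as 1, and its library letter and number identified it.

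Rows out of frame, with a stop or with an unread base were called non-productive. TRAJ7 rows ending 1 base early were read with that base restored, which changes the totals that shares are taken of. Near-identical V copies were pooled. Reads per TRAJ segment were fitted with edgeR 4.0.16 in R 4.3.3 (quasi-likelihood, 4 groups, library total as scale, segments with at least 10 reads in all and 0.1% in a library, Benjamini-Hochberg over all segments); clonotype counts likewise with at least 10 in all. An SE is the log2 difference divided by the square root of the F statistic. DESeq2 1.42.0 was an alternative. The fit was tested on simulated data. Tables used Python with pandas. The members, lists and tests were chosen with earlier results of these data known. Named were the 8 segments, those next to the threshold, any called between KO and WT, the 3 most alike, and each segment's leading V, leading TDLN clonotype and tumor clonotypes of 0.1% or more; the other sequences, neighbours and joints were chosen after their values were seen.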

Additional observations from a re-analysis of the deposited data

How the results depend on the processing

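The count of segments lower in tumor, which chose the 8, was 8 and ranged from 5 (without KO TDLN 2, or without KO tumor 1) to 12 (without KO tumor 3) with 1 library left out, and was 10 with TMM scaling, 9 with DESeq2, 11 with no filter, 10 with the TRAJ7 frame as deposited and 7 with non-productive rows included. With 1 library left out, TRAJ40 and TRAJ44 stayed past the threshold only without KO tumor 3. The totals can also hold other segments. Without WT TDLN 3 the 8 were 6 members with TRAJ24 and TRAJ35. Of 13 same-numbered pairs of libraries 5 correlated above 0.1 (-0.183 to 0.397). These included pairs of a WT and a KO library, and no set of differently numbered pairs was compared. The check therefore cannot decide whether replicate numbers pair the libraries. With the replicate number as a block the count of segments lower in tumor was 2, TRAJ13 and TRAJ43. With that block KO against WT still had 0 calls in TDLN and in tumor. KO against WT by edgeR had 0 calls under each alternative and each library left out (0 to 0), by reads in both tissues and by clonotypes, whereas DESeq2 called 2 segments in TDLN and 3 in tumor by reads.

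Among the 8 segments the KO minus WT log2 difference in TDLN changed sign for TRAJ13 (0.51 with the replicate block, 0.40 without WT TDLN 3), TRAJ26 (0.50 without WT TDLN 3, 0.20 without KO TDLN 2), TRAJ40 (-1.66 without KO TDLN 1) and TRAJ43 (0.99 without WT TDLN 1). Its range with 1 library left out was -1.48 to 0.40 for TRAJ13, -0.61 to 0.50 for TRAJ26, -1.66 to 5.06 for TRAJ40, -1.74 to 0.99 for TRAJ43, 0.99 to 6.25 for TRAJ56, -2.81 to -0.32 for TRAJ57, 2.44 to 5.16 for TRAJ44 and 1.63 to 3.36 for TRAJ16.

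With clonotypes found under more than 1 letter left out, the summed read share was 9.48% in WT TDLN and 2.05% in KO tumor. Without the largest clonotype of each library it was 7.69% in WT TDLN. With non-productive rows included it was 0.0925% of reads and 0.636% of clonotypes in WT tumor, and 1.71% and 2.48% in KO tumor. Without likely error sequences the clonotype share was 1.27% in KO tumor and 0.389% in WT tumor, and observed tumor clonotypes were 7.14% of those predicted. With the TRAJ7 frame as deposited the read share was 7.12% in WT TDLN. With 1 library left out the mean read share ranged over 2.85% to 5.67% in WT TDLN, 5.69% to 12.5% in KO TDLN, 0% to 0.00363% in WT tumor and 0.00423% to 0.301% in KO tumor. The clonotype share ranged over 5.92% to 9.44%, 10.2% to 13.1%, 0% to 0.234% and 0.326% to 0.927%. With 1 library left out, observed tumor clonotypes were 2.26% (without KO tumor 3) to 5.22% of those predicted. The cause of these shifts was not tested. Leaving out TRAJ44 rows with the J end out of frame was chosen after seeing the data and gave 6 segments lower in tumor. TRAJ40 and TRAJ44 were not among them.

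A count of 0 reads in a single tumor library allows a share of up to 0.00316% (WT tumor 2) to 0.0127% (KO tumor 1) of productive reads, for counting error only. Single clones of these segments held up to 12.8% of a TDLN library.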
